A study of Mus musculus with 77 samples.

Results

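The granins and the enzymes of prohormone processing were followed as 10 genes, each a row of the deposited count table of 46078 genes: the granins Chga, Chgb, Scg2, Scg3 and Vgf, the convertases Pcsk1 and Pcsk2, their chaperone and inhibitor Scg5 and Pcsk1n, and the carboxypeptidase Cpe. The genes were chosen by name, and all 10 had reads and passed the filter on low counts, detection in at least 5 libraries. The cells came from adult pancreatic ductal organoids of C57BL/6 mice, which are duct cells cultured as hollow spheres in a gel matrix, transduced with lentivirus carrying a doxycycline-inducible (Tet-on) construct. The construct encoded GFP only, or GFP joined through a 2A peptide to HA-tagged WT Ngn3 (Neurogenin3, the transcription factor that starts endocrine differentiation) or to 6S-A Ngn3, in which serines that precede prolines are replaced by alanine so that they cannot be phosphorylated. GFP-only, WT Ngn3 and 6S-A Ngn3 cells were sorted at 2 days after induction, with 3 biological replicates of 6 technical repeats each. At 8 days, WT Ngn3 cells (4 libraries retained), 6S-A Ngn3 cells (6 libraries) and cells without color from the same WT or 6S-A organoids (6 libraries each) were sorted, again in 3 biological replicates. No GFP-only sample of 8 days is among the labels, and a no-color cell shares the organoid with its WT or 6S-A Ngn3 neighbours but was sorted as lacking the fluorescence of the construct. Organoids were of passage 2, except replicate 3 of every group at 8 days, which was of passage 5 and gave 1 library per group. Each library was made by Smart-seq2 from a pool of 50 sorted cells, so a low value in a pool cannot tell fewer cells that express a gene from less RNA per cell.

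Granins are acidic proteins that gather in the trans-Golgi network and help to form dense-core secretory granules, the stores from which endocrine cells and neurons release peptides. Inside the granule, the endoproteases PC1/3 (encoded by Pcsk1) and PC2 (Pcsk2) cut prohormones after pairs of basic residues, and carboxypeptidase E (Cpe) then trims those residues from the ends. Proinsulin and proglucagon are matured by these enzymes in the islet, and Chga is a widely used marker of endocrine cells.

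Promoter sequences from RefSeq (GRCm38.p6, 250 bases before and 50 after the start of a gene) were at hand for 8 of the 10 genes and not for Vgf and Cpe. The palindrome TGACGTCA, known as the cyclic AMP response element, lies in the promoters of Chgb, Scg2 and Pcsk1, and in 1.55% of all 32851 promoters. The related TGACGTAA, noticed in the sequence before it was searched, lies in that of Chga and in 0.447% of promoters. The windows of 30 bases around these matches are shown because the genes that carry them are those described most closely in the results. Capitals mark the match, each window is read on the strand of its gene, and both strands were searched. Distances are counted from the RefSeq start, which for Chgb and Scg2 lies inside the longer gene that GENCODE annotates, so that their windows fall within the GENCODE gene coordinates given further on.

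Chga, chr12:102554886-102554915 (+), 44 bases before the RefSeq start: gggcggtcctaTGACGTAAtttcctgggtg

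Chgb, chr2:132781559-132781588 (+), 72 bases before the RefSeq start: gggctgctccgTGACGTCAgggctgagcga

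Scg2, chr1:79440076-79440105 (-), 68 bases before the RefSeq start: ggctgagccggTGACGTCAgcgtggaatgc

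Pcsk1, chr13:75089768-75089797 (+), 78 bases before the RefSeq start: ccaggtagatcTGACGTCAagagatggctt

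The E-box CANNTG, the letters that basic helix-loop-helix factors such as Ngn3 read, lies in 6 of the 8 promoters (Chga, Chgb, Scg2, Scg5, Pcsk2 and Pcsk1n), with 10 matches in all, 3 of them in Chga and 3 in Scg5. As 66.2% of all promoters hold an E-box by this definition, the share among the 8 is close to the background. No TATAAA was found in the 8 windows, and 12.4% of all promoters hold it. These matches describe letters in a window and not binding.

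The retained 76 libraries held between 1501002 and 9202142 reads on genes. Levels are given as CPM (counts per 1000000 reads on genes, scaled by TMM), and for a replicate they are computed from its summed technical repeats. What the biological replicates were is not stated beyond their number, so p-values measure the spread between these samples. Neurog3 checks the labels: it was at 0.0523 ± 0.0180 CPM in GFP-only cells, 133 ± 62.9 in WT and 138 ± 52.5 in 6S-A Ngn3 cells at 2 days, and 22.5 ± 21 and 12.7 ± 2.79 at 8 days (SD, n = 3), with transgene and endogenous reads not separated. No-color cells had 8 Neurog3 reads in WT and 17 in 6S-A organoids (0.204 ± 0.197 and 0.453 ± 0.501 CPM), which did not pass against GFP only with edgeR (log2 change 2.64, unadjusted p = 0.0126, adjusted p = 0.189) and passed with DESeq2 (adjusted p = 0.0489). The 12 ductal markers (Krt19, Krt18, Epcam, Spp1 and others) all had reads in every group, and their summed level was 17212 to 19107 CPM in GFP-only, 10645 to 11377 in WT and 8856 to 9614 in 6S-A Ngn3 replicates at 2 days. The neuronal tubulin Tubb3 averaged 0.784 CPM in GFP-only, 68.3 in WT and 130 in 6S-A Ngn3 cells and was called higher in both, as it was at 8 days against no-color cells (log2 change 3.10, adjusted p = 0.0423, and 3.90, adjusted p = 0.00631), while at 2 days the other 6 Schwann cell and neuron markers summed to 1.67 to 3.17, 4.23 to 4.50 and 3.34 to 4.73 CPM. Among those 6, Elavl4 was called higher with 6S-A Ngn3 and, with replicate number as a block, with WT Ngn3 at 2 and 8 days, and Prph was called lower with 6S-A Ngn3 and not with the block. The 5 endothelial markers summed to 0.876 to 1.49 CPM in GFP-only, 1.62 to 5.85 in WT and 2.66 to 10.2 in 6S-A Ngn3 cells, with Pecam1 called higher with 6S-A Ngn3 (log2 change 4.08, adjusted p = 0.0197) from 3 reads in GFP-only to 49 in 6S-A Ngn3 pools, and Kdr called higher with the block. The 10 acinar markers summed to at most 7.88 CPM in every group of 2 days, with Cela1 called lower with WT Ngn3 (log2 change -2.04, adjusted p = 0.0129), and to at most 14.7 CPM in Ngn3 cells and between 7.04 and 20.8 CPM in no-color cells at 8 days. Of these 10, Cpa1, Pnlip, Amy2b and Ptf1a had no read in any group. Summed fibroblast markers stayed at or below 2.60 CPM. The part of these cell type markers in the results below was not tested.

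In GFP-only ductal cells, Cpe was the only one of the 10 genes with an appreciable level. It was at 113, 103 and 104 CPM in the 3 replicates and between 86.2 and 159 CPM in single pools. Scg5 came next with 1.49, 1.49 and 1.52 CPM, and the other 8 genes stayed at or below 0.653 CPM in every GFP-only replicate. Expressed per kilobase of exon, so that genes can be set side by side, Cpe made up 96.7% of the summed level of the 10 genes. At 10 CPM or more, 1 gene (Cpe) was seen in every GFP-only pool, whereas WT Ngn3 pools held 1 to 7 such genes (median 6) and 6S-A Ngn3 pools 4 to 8 (median 6).

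**Figure D1:**
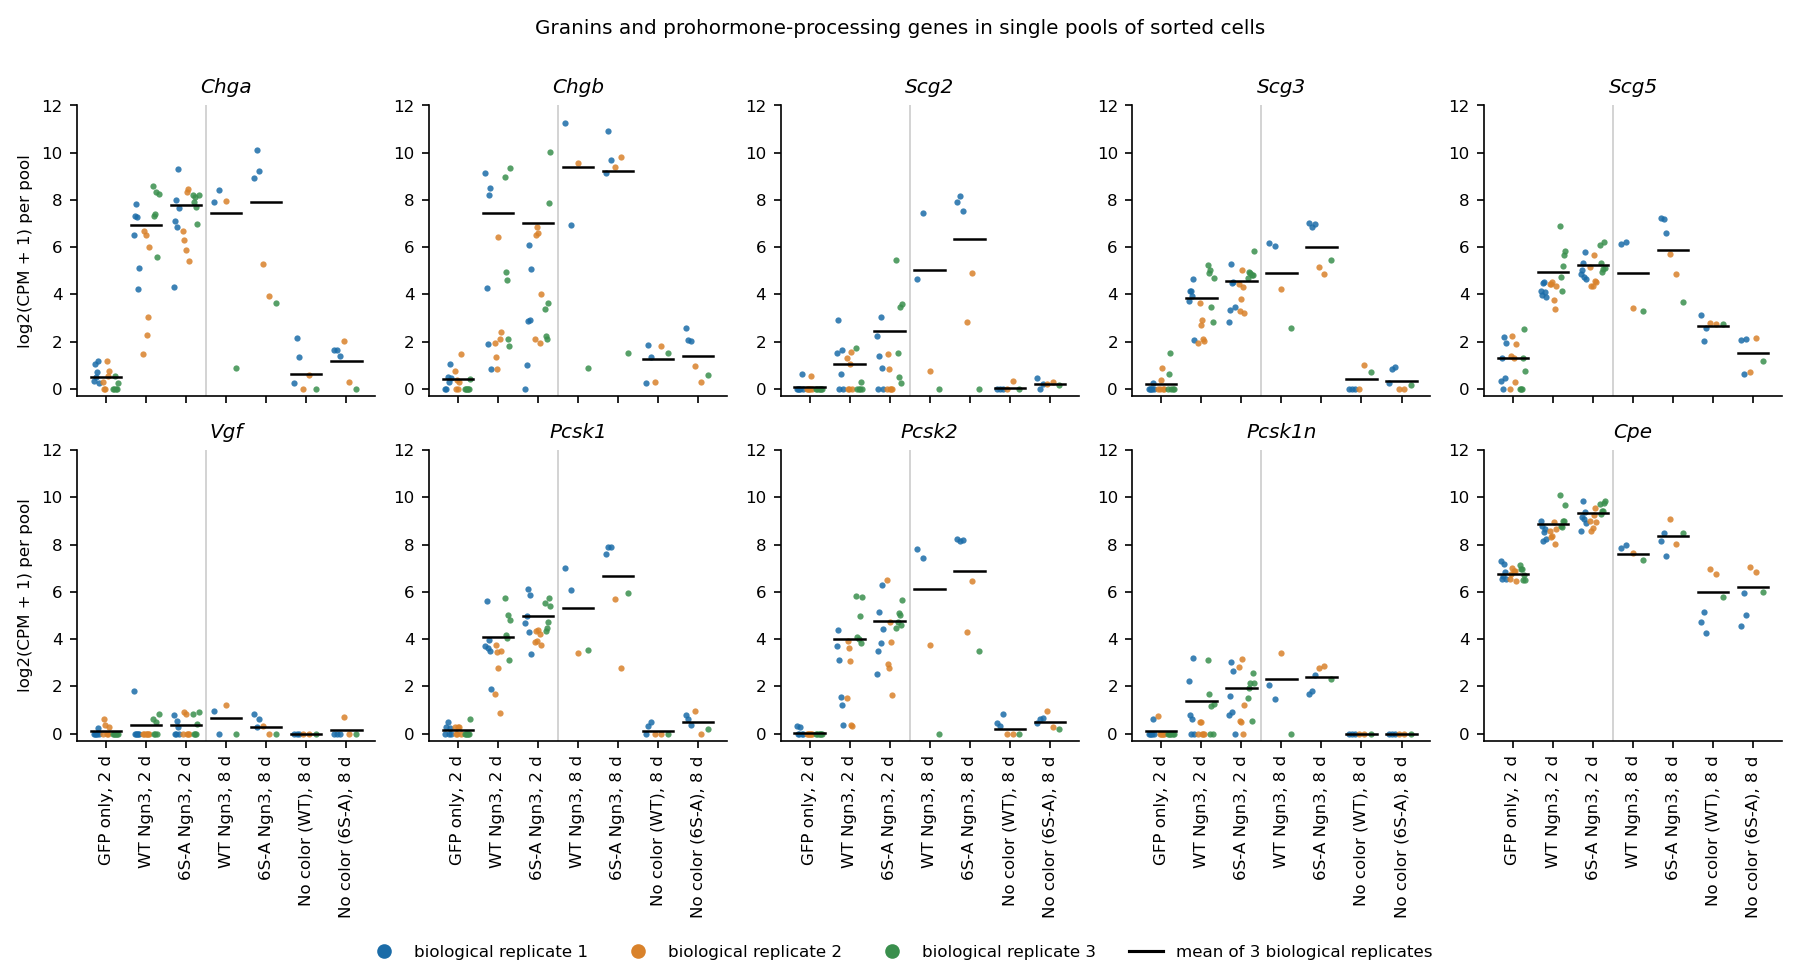
Level of each gene in all 76 pools, as log2(CPM + 1) on the vertical axis, by group on the horizontal axis; points are pools of 50 cells colored by biological replicate, and lines mark the mean of 3 replicates. Cpe is present in every pool of every group, Chgb spans the axis among Ngn3 pools of 2 days, and Vgf stays near 0 throughout.

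The first comparison asks which of the genes Ngn3 turned on in ductal cells within 2 days. Of the 10 genes, 8 rose in WT Ngn3 cells over GFP only and 9 in 6S-A Ngn3 cells, and none fell (adjusted p under 0.05, edgeR's quasi-likelihood test). Over all 23844 genes tested, 11.8% were called for WT Ngn3 (6.56% higher and 5.23% lower) and 18.1% for 6S-A Ngn3 (9.43% higher and 8.62% lower). The median log2 change of the 10 genes was 5.39 for WT and 6.60 for 6S-A Ngn3, against 0.01 and 0.02 over all genes. The comparisons share the GFP-only samples.

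Chga (chr12:102554969-102565028) encodes chromogranin A, and its promoter holds the TGACGTAA shown above. Its level was 0.653, 0.459 and 0.0922 CPM in GFP-only replicates 1 to 3, 95.4, 41.1 and 225 CPM in WT Ngn3, and 258, 166 and 227 CPM in 6S-A Ngn3. Every Ngn3 replicate lay far above every GFP-only one. The log2 change was 8.15 (SE 0.89, adjusted p = 0.000973) for WT and 8.99 (SE 0.91, adjusted p = 0.000398) for 6S-A Ngn3. Chga reached 10 CPM in 15 of 18 WT and 18 of 18 6S-A Ngn3 pools.

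Chgb (chr2:132781278-132795079), chromogranin B, had the largest SD of log2(CPM + 1) among pools of a replicate of the 10 genes, 3.04 in WT and 2.67 in 6S-A Ngn3 cells. It was at 238, 15.2 and 265 CPM in WT and at 16.0, 46.7 and 325 CPM in 6S-A Ngn3 replicates, against at most 0.497 CPM in GFP only. Its log2 change was 9.02 (SE 2.12, adjusted p = 0.0423) for WT and 8.59 (SE 2.11, adjusted p = 0.0356) for 6S-A Ngn3. When replicate number entered as a block, neither passed (adjusted p = 0.0556 and 0.0526), and on leaving out 1 replicate the call was lost in 5 of 6 cases for WT (all but WT replicate 2) and in 4 of 6 for 6S-A Ngn3 (each GFP-only replicate and 6S-A replicate 3, without which the log2 change was 6.53). Single pools ran from 0.797 to 654 CPM in WT (median 11.3) and from 0 to 1057 CPM in 6S-A Ngn3 (median 10.5), and a single 6S-A pool held 60.2% of the summed Chgb level of its 18 pools. Only 9 of 18 pools reached 10 CPM in each group, so the means of the replicates rest on a few pools.

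Scg2 (chr1:79434669-79440120), secretogranin II, which is the precursor of secretoneurin, was low at 2 days. It was at 1.98, 0.732 and 0.492 CPM in WT and at 1.74, 0.312 and 11.2 CPM in 6S-A Ngn3 replicates, against 0.109, 0.0765 and 0 in GFP only. The test was passed for 6S-A (log2 change 5.97, SE 1.39, adjusted p = 0.0110) and not for WT Ngn3 (3.95, SE 1.42, adjusted p = 0.104), for which DESeq2 called it (4.07, SE 1.16, adjusted p = 0.00405). The 6S-A call was lost without GFP-only replicate 1 or 2, and the log2 change was 3.86 without 6S-A replicate 3. Of the 6S-A Ngn3 reads, 253 of 297 came from replicate 3, and 3 of 18 pools reached 10 CPM.

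Scg3 (chr9:75643189-75684056), secretogranin III, which tethers Chga to the granule membrane, was more even. It was at 14.3, 4.97 and 20.9 CPM in WT and at 18.3, 16.1 and 33.8 CPM in 6S-A Ngn3, against at most 0.230 CPM in GFP only. The log2 change was 6.46 (SE 0.71, adjusted p = 0.000119) and 7.22 (SE 0.71, adjusted p = 2.98e-05). Vgf (chr5:137026392-137033351), a granin-like precursor of several neuropeptides, had 20 reads over the 18 WT pools and 18 over the 18 6S-A pools, against 5 in GFP only, and was not called (adjusted p = 0.369 and 0.327).

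Pcsk1 (chr13:75089826-75134861) and Pcsk2 (chr2:143546156-143816285), the endoproteases, both rose from near 0. Of the pair, only Pcsk1 has TGACGTCA in its promoter window, and only Pcsk2 has an E-box there. Pcsk1 was at 0.109, 0.115 and 0.138 CPM in GFP only, at 16.0, 6.59 and 24.9 CPM in WT, and at 37.1, 15.6 and 37.8 CPM in 6S-A Ngn3. Its log2 change was 6.99 (SE 0.69, adjusted p = 6.07e-05) for WT and 7.91 (SE 0.69, adjusted p = 1.32e-05) for 6S-A Ngn3. Among the 10 genes, no smaller adjusted p was found for WT Ngn3, and only that of Cpe was smaller for 6S-A Ngn3.

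Pcsk2 had only 2 reads in all 18 GFP-only pools, against 948 in WT and 1708 in 6S-A Ngn3. Relative to library size, this is a ratio of 552 (95% counting interval 152 to 4564) for WT and 1012 (280 to 8364) for 6S-A Ngn3. Both GFP-only reads were in replicate 1. On leaving out 1 replicate, the fitted log2 change, 8.89 and 9.69, ranged from 7.54 to 11.38 and from 9.16 to 12.18, highest without that GFP-only replicate and lowest without WT replicate 3 and GFP-only replicate 2. The levels were 7.0, 4.81 and 33.4 CPM in WT and 30.6, 17.9 and 30.8 CPM in 6S-A Ngn3 replicates. Both changes passed edgeR's test (adjusted p = 0.00221 and 0.000799), and 10 of 18 WT and 14 of 18 6S-A Ngn3 pools reached 10 CPM. Per kilobase of exon, the ratio of Pcsk2 to Pcsk1 was 0.310, 0.517 and 0.949 in WT and 0.585, 0.812 and 0.577 in 6S-A Ngn3 replicates, so Pcsk1 led in all 6 by this measure. Without scaling to length, Pcsk2 had more reads in WT replicate 3 (679 against 507) and in 6S-A replicate 2 (344 against 300). The order there rests on the exon lengths used. Pcsk2 shares 359 exon bases with the antisense genes Pcsk2os1 and Pcsk2os2, and whether the counting used strand is not stated.

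Scg5 (chr2:113776362-113829121) encodes 7B2, the chaperone that PC2 needs to mature, and Pcsk1n (chrX:7919822-7924410) encodes proSAAS, an inhibitor of PC1/3. Scg5 was at 16.4, 16.5 and 56.2 CPM in WT and at 34.3, 26.5 and 48.6 CPM in 6S-A Ngn3, a log2 change of 4.31 (SE 0.54, adjusted p = 0.000622) and 4.60 (SE 0.55, adjusted p = 0.000267). It was at 9.46 CPM or more in every WT and at 19.3 CPM or more in every 6S-A Ngn3 pool, and its SD of log2(CPM + 1) among pools of a replicate, 0.63 and 0.50, compares with 0.41 and 0.35 for Cpe. Pcsk1n was far lower, at 2.65, 0.105 and 2.11 CPM in WT and at 3.02, 2.29 and 3.10 CPM in 6S-A Ngn3, with no read in 8 of 18 WT and 2 of 18 6S-A pools. It rose in both (log2 change 4.30, SE 0.99, adjusted p = 0.00990, and 5.07, SE 0.98, adjusted p = 0.00220). It shares 135 exon bases with Eras on the opposite strand.

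Cpe (chr8:64592542-64693054) rose from its ductal level. It was at 385, 351 and 668 CPM in WT and at 602, 533 and 794 CPM in 6S-A Ngn3, against 103 to 113 CPM in GFP only. The log2 change was 2.14 (SE 0.23, adjusted p = 8.68e-05) for WT and 2.59 (SE 0.24, adjusted p = 1.24e-05) for 6S-A Ngn3. The lowest Ngn3 pool, at 260 CPM, was above the highest GFP-only pool, at 159 CPM. The log2 change was the smallest among the genes called in either comparison.

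**Figure D2:**
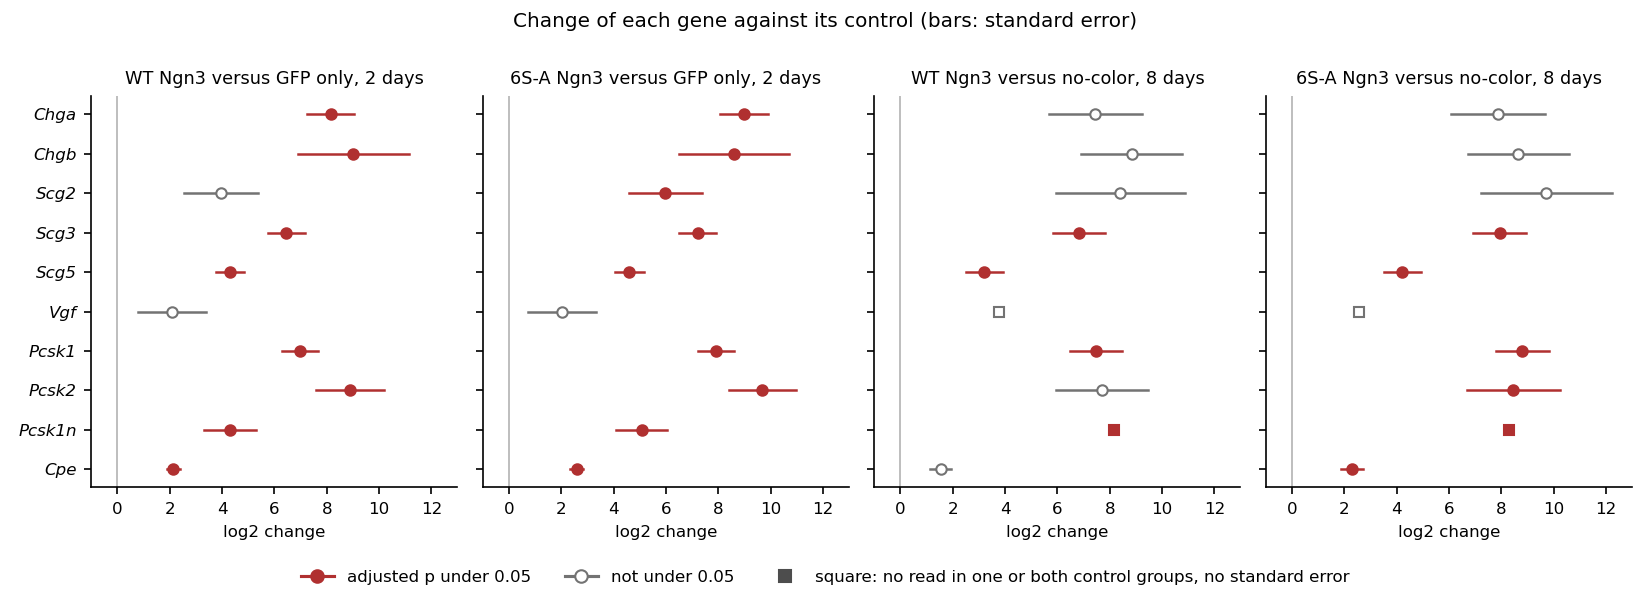
Log2 change of each gene (horizontal axis) against GFP only at 2 days and against no-color cells at 8 days, with bars for the standard error and filled symbols for an adjusted p under 0.05. All 10 genes lie above 0 in the 4 comparisons, and at 8 days the bars of Chga, Chgb, Scg2 and Pcsk2 are the widest of those drawn. Vgf and Pcsk1n are drawn without a bar against no-color cells, where Pcsk1n had no read.

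The second comparison asks which genes were still up at 8 days, against the mean of the no-color groups, which serve as controls for WT and 6S-A Ngn3 alike. Of the 10 genes, 4 passed for WT Ngn3 (Scg3, Scg5, Pcsk1 and Pcsk1n) and 6 for 6S-A Ngn3 (the same 4 with Pcsk2 and Cpe). Over all 19696 genes tested, 0.914% were called for WT (0.741% higher and 0.173% lower) and 1.71% for 6S-A Ngn3 (1.37% higher and 0.34% lower). The median log2 change of the 10 genes was 7.46 and 8.12, against 0.01 and 0.03 over all genes. The numbers of calls depended on the fit. A block for replicate number gave 9 genes for each protein, all but Vgf, where 2.4% (WT) and 3.57% (6S-A) of all genes were called. Against its own no-color group alone, WT Ngn3 kept 1 (Pcsk1) and 6S-A Ngn3 kept 3 (Scg3, Scg5 and Pcsk1), where 0.249% and 0.584% of all genes were called. DESeq2 called 9 for each protein, with 2.8% and 4.17% of all genes.

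Under each of these fits, Scg3, Scg5 and Pcsk1 passed for 6S-A Ngn3, and for WT Ngn3 only Pcsk1 did. It was at 95.9, 9.34 and 10.1 CPM in WT and at 213, 25.7 and 60.1 CPM in 6S-A Ngn3 replicates, against 0 to 0.541 CPM in the 6 no-color replicates. Its log2 change was 7.46 (SE 0.99, adjusted p = 0.00248) for WT and 8.81 (SE 1.01, adjusted p = 0.000520) for 6S-A Ngn3. On leaving out 1 replicate it kept its call in 9 of 9 cases for each, with a log2 change of 5.45 (without WT replicate 1) to 8.98 and of 7.56 (without 6S-A replicate 1) to 10.35, both highest without replicate 1 of no-color cells from WT organoids. Scg3 was at 66.2, 17.1 and 4.78 CPM in WT and at 120, 30.5 and 42.2 CPM in 6S-A Ngn3, against at most 0.612 CPM in no-color cells (log2 change 6.83, SE 0.99, adjusted p = 0.00332, and 7.94, SE 1.01, adjusted p = 0.000885). Its call was kept as often, with 5.35 to 7.88 and 7.08 to 8.98, lowest without replicate 1 of the Ngn3 group and highest without replicate 1 of no-color cells from 6S-A organoids.

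Replicates spread widely for the chromogranins. Chgb was at 1284, 740 and 0.796 CPM in WT and at 1000, 778 and 1.85 CPM in 6S-A Ngn3 replicates 1 to 3, with no-color cells between 0.494 and 3.67 CPM. In both groups, the replicate of passage 5 lay within the range of the no-color cells, while the replicates of passage 2 lay over 100 CPM. The log2 change was 8.84 (SE 1.94, adjusted p = 0.0893) for WT and 8.65 (SE 1.93, adjusted p = 0.0699) for 6S-A Ngn3, and with the block it was 8.71 (adjusted p = 0.0269) and 8.69 (adjusted p = 0.0210).

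Technical repeats of a replicate differed as well. The 2 WT Ngn3 pools of replicate 1 held 2469 and 122 CPM of Chgb, while they held 243 and 345 CPM of Chga and 129 and 67.2 CPM of Pcsk1. In 6S-A Ngn3, the 3 pools of replicate 1 held 557, 1956 and 820 CPM of Chgb, the 2 pools of replicate 2 held 681 and 901 CPM, and the pool of replicate 3 held 1.90 CPM.

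Chga followed a like pattern in WT Ngn3, with 283, 241 and 0.796 CPM, and was at 675, 24.5 and 11.1 CPM in 6S-A Ngn3. It was not called in either (adjusted p = 0.118 and 0.0737), and was called in both with the block (adjusted p = 0.0140 and 0.00928). Scg2 was at 94.4, 0.644 and 0 CPM in WT and at 226, 18.1 and 0 CPM in 6S-A Ngn3, so replicate 1 held nearly all of its reads. It did not pass (adjusted p = 0.206 and 0.101), and did so with the block (0.0251 and 0.00445). Passage and replicate number go together at 8 days and cannot be told apart. Replicates 1 to 3 were 2, 1 and 1 pools in WT Ngn3 and 3, 2 and 1 pools in the other groups.

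Pcsk2 was at 192, 12.2 and 0 CPM in WT and at 287, 53.5 and 9.89 CPM in 6S-A Ngn3, against at most 0.631 CPM in no-color cells. It passed for 6S-A (log2 change 8.46, SE 1.78, adjusted p = 0.0491) and not for WT Ngn3 (7.70, SE 1.75, adjusted p = 0.0934, and 0.00244 with the block). The WT estimate ranged from 4.13 (without WT replicate 1) to 9.76 (without replicate 1 of no-color cells from WT organoids). The 6S-A call was lost in 9 of 9 cases on leaving out 1 replicate, with a log2 change of 6.57 (without 6S-A replicate 1) to 10.54 (without replicate 1 of no-color cells from WT organoids). Its ratio to Pcsk1 per kilobase of exon was 1.42, 0.928 and 0 in WT and 0.953, 1.47 and 0.117 in 6S-A Ngn3 replicates, so which of the pair led differed between replicates. In replicate 3, Pcsk1 was present at 10.1 and 60.1 CPM where Pcsk2 was at 0 and 9.89 CPM.

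Scg5 was at 68.7, 9.34 and 8.56 CPM in WT and at 127, 37.7 and 11.6 CPM in 6S-A Ngn3, while no-color cells kept 1.23 to 5.58 CPM. Both changes passed (log2 change 3.21, SE 0.70, adjusted p = 0.0423, and 4.21, SE 0.71, adjusted p = 0.00550). The WT call was lost in 7 of 9 cases on leaving out 1 replicate, namely each no-color replicate and WT replicate 1, without which the log2 change was 1.48. The 6S-A call was kept in 9 of 9, with 2.94 without 6S-A replicate 1. Pcsk1n had no read in any of the 12 no-color pools. Taking 3 reads over all no-color pools as the floor, it was at least 80.6-fold higher in WT (2.42, 9.34 and 0 CPM) and at least 87.5-fold higher in 6S-A Ngn3 (3.03, 5.88 and 3.86 CPM), with adjusted p = 0.0344 and 0.0178. The bound for WT Ngn3 is 24.9-fold without WT replicate 2, and that for 6S-A Ngn3 is 70.8-fold or more without any 1 replicate of 6S-A Ngn3. Both keep the floor over all no-color pools. The calls were lost in 8 of 9 cases for WT (all but WT replicate 3) and in 2 of 9 for 6S-A Ngn3 (6S-A replicate 2, and replicate 1 of no-color cells from WT organoids). Vgf had 9 reads in WT and 10 in 6S-A Ngn3 pools, against 4 in no-color pools, and did not pass (adjusted p = 0.425 and 0.540).

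Cpe was at 234, 192 and 156 CPM in WT and at 265, 376 and 355 CPM in 6S-A Ngn3. No-color cells held 24.3, 113 and 49.7 CPM in WT organoids and 34.7, 121 and 61.3 CPM in 6S-A organoids, below every Ngn3 replicate. The log2 change was 2.29 (SE 0.41, adjusted p = 0.00674) for 6S-A and 1.54 (SE 0.41, adjusted p = 0.103, and 0.00446 with the block) for WT Ngn3.

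The make-up of the 10 transcripts, per kilobase of exon, differed between days in the means. Cpe made up 56.8% of the summed level in WT and 59.3% in 6S-A Ngn3 cells at 2 days, and 16.8% and 22.8% at 8 days. Chgb made up 20% and 11.3% at 2 days and 55.6% and 38.9% at 8 days, where it ranked first. Because Chgb was near 0 in replicate 3 of 8 days, this order does not hold in each replicate, and the levels per kilobase of Chgb (246 ± 235 in WT and 217 ± 191 in 6S-A Ngn3) and Cpe (74.4 ± 14.8 and 127 ± 22.6, SD, n = 3) overlap. In no-color cells Cpe again held 84.7% (WT organoids) and 91.6% (6S-A organoids).

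**Figure D3:**
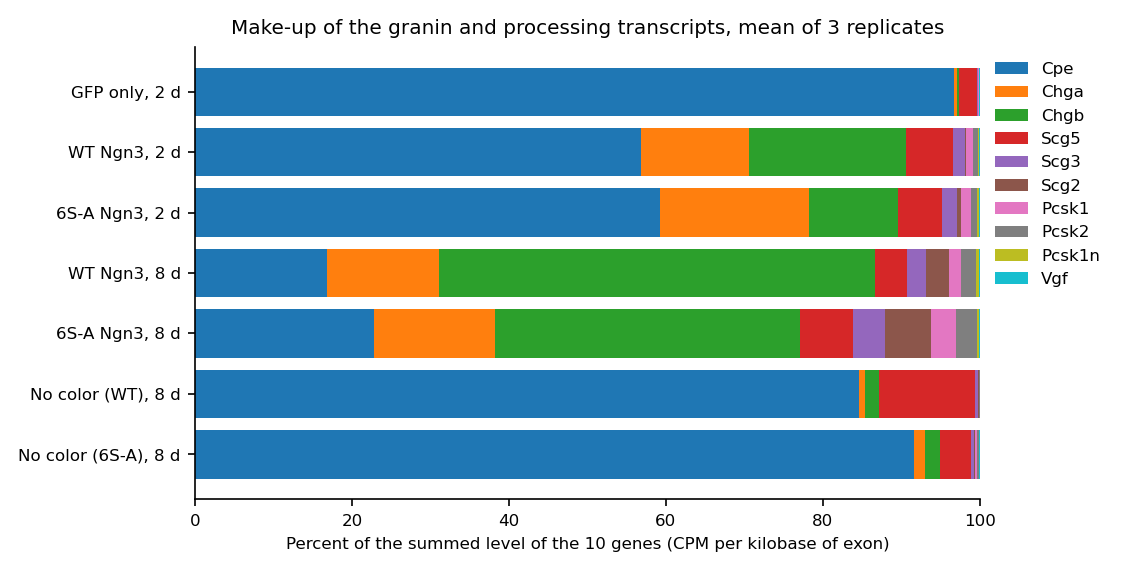
Share of each gene in the summed level of the 10 genes, as CPM per kilobase of exon (horizontal axis, percent), by group, from the means of 3 replicates. Cpe takes 96.7% in GFP-only cells and 16.8% in WT Ngn3 cells at 8 days, where Chgb takes 55.6%.

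Between days, time cannot be told apart from any other difference between the libraries of each day, and the controls were different kinds of sorted cells. None of the 10 genes passed a test of 8 days against 2 days within WT or 6S-A Ngn3 cells, in a joint fit of all 7 groups in which 0.168% (0.0562% higher and 0.112% lower) and 0.562% (0.317% higher and 0.245% lower) of 19589 genes were called (edgeR's quasi-likelihood test). At an unadjusted p under 0.05 there were 2 for WT (Scg2 and Cpe) and 3 for 6S-A Ngn3 (Scg2, Pcsk1 and Cpe), and DESeq2 called none either. Without the filter on low counts, 4 genes passed for WT (Chgb, Scg2 and Pcsk2 higher, Cpe lower) and 4 for 6S-A Ngn3 (Chgb, Scg2, Pcsk1 and Pcsk2), where 1.13% and 1.93% of all genes were called. Scg2 had the largest difference, 4.89 (95% interval 0.96 to 8.84) and 4.20 (0.46 to 7.94) on the log2 scale, higher at 8 days. It was -2.02 without replicate 1 of WT Ngn3 at 8 days, and 1.04 without replicate 1 of 6S-A Ngn3 at 8 days. Cpe was lower at 8 days by the same measure, -1.27 (-2.17 to -0.37) and -0.95 (-1.85 to -0.06), with adjusted p = 0.359 and 0.365. Among controls, 1.35% of genes were called between no-color cells of 8 days and GFP-only cells of 2 days (0.403% higher and 0.95% lower), none of them among the 10 (edgeR's quasi-likelihood test, with 0 at an unadjusted p under 0.05 and 0 by DESeq2), and without the filter 3 were (Chga, Chgb and Pcsk2), among 2.63% of all genes.

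The third comparison asks whether 6S-A Ngn3 raised these genes beyond WT Ngn3. At 2 days none of the 10 passed, where 0.0126% of all genes did (0.00839% higher and 0.00419% lower), and none was under an unadjusted p of 0.05 (edgeR's quasi-likelihood test). DESeq2 called none, with Scg2 and Pcsk1 under an unadjusted p of 0.05. The estimate was above 0 for 8 of the 10 genes, with a median of 0.76 against 0.00 over all genes on the log2 scale. With the first repeat of each replicate alone, it was above 0 for 4 of 9. Pcsk1 differed by 0.92 (95% interval -0.02 to 1.86, adjusted p = 0.873), Cpe by 0.45 (-0.04 to 0.93, adjusted p = 0.911) and Scg3 by 0.75 (-0.26 to 1.77, adjusted p = 0.980). On leaving out 1 replicate, Pcsk1 ranged from 0.55 (without WT replicate 2) to 1.41 (without WT replicate 3) and Cpe from 0.26 (without 6S-A replicate 3) to 0.80 (without WT replicate 3). For Chgb the estimate was -0.43 with an interval from -3.57 to 2.72, so these data could not show a difference of several-fold in either direction.

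Replicates of the same number could be set side by side. At 2 days Pcsk1 was higher with 6S-A Ngn3 in 3 of 3 such pairs, by 1.21, 1.24 and 0.60 on the log2 scale, and so were Chga, Scg3, Pcsk1n and Cpe. When these pairs entered the fit as a block, Pcsk1 passed at 2 days (1.00, SE 0.17, adjusted p = 0.0212) and no other of the 10 did, where 0.617% of all genes passed. The same fit called 3 of the 12 ductal markers lower with 6S-A Ngn3, Krt19 by a log2 difference of -1.05 (adjusted p = 0.0130), Muc1 by -0.57 (0.0347) and Krt18 by -0.35 (0.0322), and the part of these in the difference of Pcsk1 was not tested. Replicates 1 and 2 of Chga differed by 1.44 and 2.01 and replicate 3 by 0.01, so the sign alone says little there. None of the 10 was lower in all 3 pairs.

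At 8 days, Pcsk1 was again higher in 3 of 3 pairs, by 1.15, 1.46 and 2.57, as were Scg3, Scg5, Pcsk2 and Cpe. No gene of any kind passed the direct test of 8 days (0.0% called, 0 by DESeq2), and none of the 10 was under an unadjusted p of 0.05. Pcsk1 differed by 1.34 (95% interval -0.60 to 3.28), and Cpe by 0.76 (-0.29 to 1.80). For Pcsk1 the estimate was 0.096 without replicate 1 of 6S-A Ngn3 and 3.36 without replicate 1 of WT Ngn3. The block left Pcsk1 at 1.67 (SE 0.46) with an unadjusted p of 0.00183 that did not survive adjustment over all genes (adjusted p = 1). Whether the difference between the proteins grew from 2 to 8 days was tested in the joint fit, in which 0.0% of genes passed and 0 of the 10 were under an unadjusted p of 0.05. DESeq2 called 4 genes there, none of them one of the 10. For Pcsk1 this change was 0.43 (95% interval -1.79 to 2.64).

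**Figure D4:**
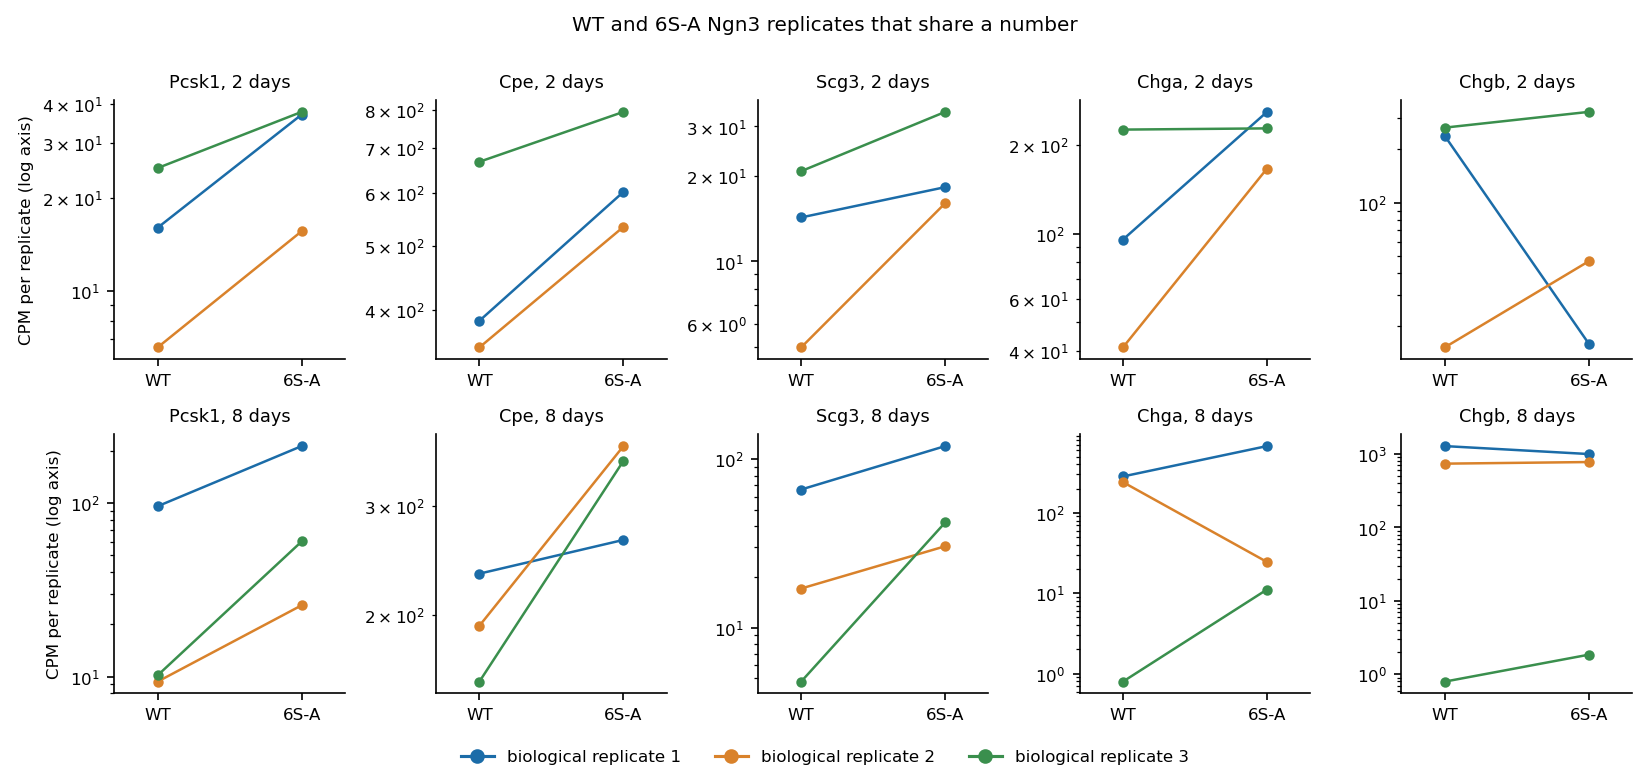
CPM of Pcsk1, Cpe, Scg3, Chga and Chgb in WT and 6S-A Ngn3 replicates, with lines joining replicates of the same number, at 2 days (top) and 8 days (bottom), on log axes that differ between panels. Every line of Pcsk1, Cpe and Scg3 goes up. Those of Chga go up at 2 days and in different directions at 8 days, and those of Chgb go in different directions.

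Within a group, the pools of 2 days showed which genes varied together. Correlations were taken over 18 pools on log2(CPM + 1) after the mean of each replicate was subtracted, so differences between replicates do not enter. For Chga and Chgb they were -0.07 in WT and 0.07 in 6S-A Ngn3, so no linear relation was seen within replicates. Some pools were rich in both. In WT replicate 3, repeat 1 held 383 CPM of Chga and 506 of Chgb, and repeat 6 held 306 and 654. For Pcsk1 and Pcsk2 the correlation was 0.72 in WT and 0.27 in 6S-A Ngn3. Over all 36 pairs among 9 of the genes, the median was 0.39 in WT and 0.35 in 6S-A Ngn3. Pools share their replicate and their cell sorting, and 6 pairs of technical repeats lay much closer than the others, so these values are descriptions over pools and carry no test.

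**Figure D5:**
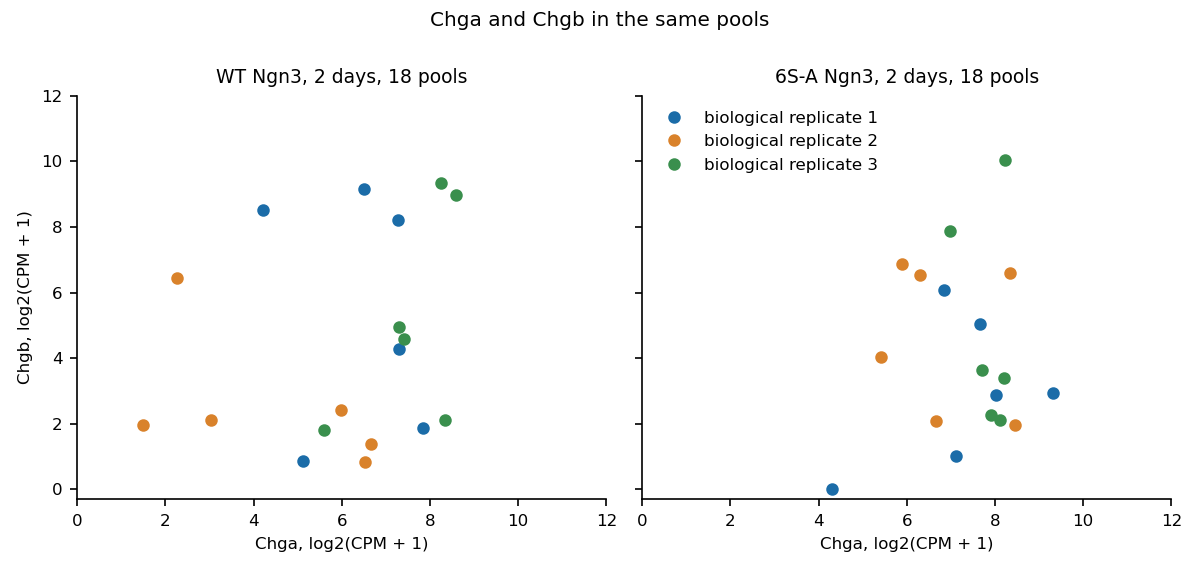
Chga (horizontal axis) against Chgb (vertical axis), both as log2(CPM + 1), in the 18 pools of WT Ngn3 (left) and 6S-A Ngn3 (right) at 2 days, colored by biological replicate. Most pools hold Chga, while Chgb ranges from near 0 to its highest level at like levels of Chga.

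Across the 21 biological replicates of the 7 groups, the genes whose log2 CPM followed each of the 10 most closely were sought among 14612 genes, and are given for 9 of them, Vgf left out. For Pcsk1 and Scg3 it was St18 (a zinc finger factor of the Myt1 family) with r = 0.97 for each, followed by the fatty acid receptor Ffar2 (0.96 for each). Chga was followed by the amino acid transporter Slc7a8 (0.96) and by Neurod1 (0.96), Chgb by Hepacam2 (0.95) and Pax6 (0.94), and Pcsk2 by Abcc8, the sulfonylurea receptor (0.96), and Dbpht2 (0.96). Scg5 was nearest to Rfx6 (0.93) and Ghrl (0.92), Pcsk1n to Ddc (0.96) and Tshz3 (0.93), and Scg2 to Th (0.89) and Iapp (0.89). Cpe was nearest to Fndc3a (0.95) and Fgd4 (0.95). The replicates differ mostly by whether Ngn3 was expressed, which any gene that responds to it shares.

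Other parts of the secretory pathway were counted in lists that were chosen by function. Of 19 genes tested for granule membrane and biogenesis, 11 rose with WT and 12 with 6S-A Ngn3 at 2 days and none fell (13 and 12 with the block). Over all genes, 6.56% and 9.43% were called higher, and the block called 18% and 24.8% in either direction. The largest changes belonged to Scgn (a calcium sensor of endocrine cells; log2 change 8.63 for WT and 9.52 for 6S-A Ngn3) and Ptprn2 (a receptor-type phosphatase of the granule membrane; 8.55 and 9.04). Resp18, a granule protein, had no read in GFP-only cells and averaged 1.36 CPM in WT and 2.41 CPM in 6S-A Ngn3 cells. At 8 days 4 and 7 of 18 passed, all higher (7 and 7 with the block, which gained genes that include Snap25 and Slc18a2 for WT and exchanged Scgn for Slc18a2 for 6S-A Ngn3), where 0.741% and 1.37% of all genes were called higher and the block called 2.4% and 3.57% in either direction. Resp18 ran from 0 to 95.5 CPM over the WT and from 14.5 to 37.4 CPM over the 6S-A Ngn3 replicates.

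Of 7 other convertases tested, 2 fell with each protein at 2 days, where 5.23% (WT) and 8.62% (6S-A) of all genes fell, among them Pcsk6, a secreted member. Pcsk6 went from 16.6 ± 2.30 CPM in GFP only to 8.86 ± 3.29 in WT and 4.99 ± 1.04 in 6S-A Ngn3 (log2 change -0.90, adjusted p = 0.0407, and -1.74, adjusted p = 0.000449). Mbtps1, the site-1 protease, was called higher with 6S-A Ngn3 only (log2 change 0.37, adjusted p = 0.0454, edgeR's quasi-likelihood test). It was at 126 CPM in GFP only, 145 in WT and 163 in 6S-A Ngn3 at 2 days, and did not pass between the proteins. At 8 days none of the 7 passed that test, where 0.914% (WT) and 1.71% (6S-A) of all genes did. The block called 1 lower for each protein there, where it called 2.4% and 3.57% of all genes. Among 14 other peptide-processing enzymes, 3 rose and 2 fell with WT Ngn3 at 2 days, and 4 rose and 3 fell with 6S-A Ngn3, where 11.8% and 18.1% of all genes were called. The block called 8 for WT, with Pam, Rnpep and Tpst1 gained, and 7 for 6S-A Ngn3, where it called 18% and 24.8% of all genes. Cpxm2, a member of the carboxypeptidase family of Cpe, had no read in GFP-only cells and averaged 1.89 CPM in WT and 2.21 CPM in 6S-A Ngn3 cells at 2 days (adjusted p = 6.16e-05 and 2.52e-05). At 2 days the lysosomal protease Ctsl rose in both (1.12 and 1.31), as did the tyrosylprotein sulfotransferase Tpst2 (0.70 and 1.31). Qpct, which forms the pyroglutamate end of peptides, fell in both (-1.87 and -1.77). Pam, which amidates peptide ends, fell with 6S-A Ngn3 (-0.54, adjusted p = 0.00632). At 8 days none of 12 passed (edgeR's quasi-likelihood test), where 0.914% (WT) and 1.71% (6S-A) of all genes did. The block called Ctsl higher and Rnpep lower for 6S-A Ngn3, where it called 3.57% of all genes.

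Of 22 prohormone genes, the substrates of these enzymes, 11 could be tested at 2 days, of which Ghrl and Gal rose with WT Ngn3 and Sst, Cck, Ghrl, Gal and Iapp with 6S-A Ngn3, where 6.56% and 9.43% of all genes rose. With the block, Ghrl did not pass for WT Ngn3 (adjusted p = 0.0577) and Nmu passed for 6S-A Ngn3. Ghrl, which encodes ghrelin, was at 103 ± 73.6 CPM in WT and 254 ± 278 in 6S-A Ngn3, and Sst, which encodes somatostatin, at 5.13 ± 8.46 and 229 ± 183 CPM (SD, n = 3). At 8 days, of 8 tested, only Gip passed, for WT Ngn3 (edgeR's quasi-likelihood test, adjusted p = 0.0367), where 0.741% of all genes rose. It rested on a single replicate at 137 CPM of the 3. The median log2 change of the 8 was 6.81 for WT and 6.09 for 6S-A Ngn3. Sst averaged 541 ± 925 and 1033 ± 893 CPM, against 5.24 and 3.18 in no-color cells of WT and 6S-A organoids. Ghrl averaged 483 ± 833 and 564 ± 859 CPM, against 2.83 and 1.67. Neither was called. The block added Iapp for both proteins and Pyy for 6S-A Ngn3.

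Beside Neurog3, which the construct carries, 12 transcription factors were named for this pathway, and 11 of them rose with WT and with 6S-A Ngn3 at 2 days, where 6.56% and 9.43% of all genes did, with Neurod1 ahead (log2 change 11.83 and 11.93) and Creb3l1 and Creb3l2, factors of the secretory pathway, among them (1.87 and 0.77 for WT, 1.95 and 0.80 for 6S-A Ngn3). Rest, a repressor of neuronal genes that include granins, fell by 0.51 on the log2 scale with 6S-A Ngn3 (adjusted p = 0.0117), and with WT Ngn3 the block called it lower as well. At 8 days 5 and 8 of 11 passed, all higher, where 0.741% and 1.37% of all genes rose, and the block added Pax4 for both proteins and Creb3l1 for WT Ngn3. Of the 12 ductal markers, 7 fell with each protein at 2 days (among them Car2, Epcam, Krt18, Krt19, Muc1 and Spp1), and 2 and 3 at 8 days, and none rose. Over all genes, 5.23% and 8.62% fell at 2 days, and 0.173% and 0.34% at 8 days. With the block these counts were 9 with each protein at 2 days, and 3 and 5 at 8 days, where it called 18%, 24.8%, 2.4% and 3.57% of all genes in either direction.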

How the data were processed

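Counts of reads per gene were deposited by the authors for 77 Smart-seq2 libraries, after alignment with GSNAP (to mm10) and assignment with HTSeq 0.5.3p3, unnormalized. Of the reads, 22.5% were not aligned, 14.4% were on no gene and 8.06% were ambiguous; these were left out. The 76 libraries with under 30% spike-in reads, over 1000000 gene reads and over 10000 genes were kept, and technical repeats were summed per biological replicate (n = 3). Reads carry no molecular identifiers, so intervals and the floor of 3 reads cover counting error only. Genes detected in at least 5 libraries were tested with edgeR 4.0.16 (TMM, robust quasi-likelihood, R 4.3.3) at a p of 0.05 after Benjamini-Hochberg adjustment, with the groups of a time point fitted together and a joint fit across time. Steps were tested on simulated data. Positions and lengths are those of GENCODE on GRCm38, and 45143 identifiers had symbols.

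The genes and lists were chosen with earlier results of these data known. Genes outside the 10 were named by rule: Neurog3, at most 3 called genes with the largest change per list and comparison, and the 2 nearest in pattern per gene; other list members named were chosen after their values were seen, and some genes the rule names are not reported here. Lists covered convertases, processing enzymes, granule membrane, prohormones, regulators, and ductal, acinar, fibroblast, endothelial, immune and neuronal markers (summed immune markers lay between 3.40 and 16.9 CPM). Alternatives were DESeq2 1.42.0 and its size factors, scran 1.30.0, no TMM, other filters and limits, the first repeat only, a replicate block, own no-color controls, no passage 5 and each replicate left out.

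The labels share replicate numbers between groups without stating what a number stands for. Same-numbered replicates deviated together with correlations of at least 0.0436 (2 days) and 0.069 (8 days) over all tested genes, and of at least 0.119 and 0.117 over genes with at least 10 CPM; the latter set was looked at after the former and after fits with the block had been seen. Blocked values or counts are therefore given beside results whose call they change.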

Additional observations from a re-analysis of the deposited data

Results flagged for a closer look

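In 3 of 37 sets of pools tested, a single pool stood apart from the other pools of its group. The usual chance rate of about 1 in 20 holds for independent values and does not apply to these sets. Scg2 was at 175 CPM in 1 of 4 WT Ngn3 pools of 8 days, and the next pool was at 24 CPM; both are technical repeats of replicate 1. These pools are technical repeats of 3 replicates, and the other cases are single pools with reads among pools at 0. Scg2 was at 0.248 CPM, which is 1 read, in 1 of 6 no-color pools from WT organoids, where the other 5 had no read. Vgf was at 0.643 CPM, which is 4 reads, in 1 of 6 no-color pools from 6S-A organoids, where again the other 5 had no read.

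The WT Ngn3 library of 8 days that was left out for having too few reads on genes also held these transcripts. In it, the values of 8 of the 10 genes were above the highest no-color pool, but that of Pcsk1 rests on 2 reads, under the floor of 3. Among the 8 were Pcsk2 with 51 reads (60.1 CPM against at most 0.888), Chga with 45 reads (53.0 CPM against at most 2.81) and Pcsk1n with 30 reads (35.3 CPM against 0), on CPM without TMM scaling. Vgf had no read there, and Cpe, at 93.0 CPM, lay below the highest no-color pool at 120 CPM.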

How the results depend on the processing

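Of the gene-level results under the alternatives, 723 kept direction and call, 62 lost and 47 gained a call in the same direction, and 6 others turned sign; Scg5 and Pcsk1n between the proteins at 2 days are not in these counts. Called genes for WT Ngn3 at 8 days (4) became 9 under DESeq2, with no filter on low counts and with the replicate block, 7 without passage 5, 2 with the first repeat only and 1 against its own no-color group; leaving out a replicate gave 2 to 7, with 2 without WT Ngn3 replicate 1, no-color WT replicate 1 or 3 or any no-color 6S-A replicate, and 7 without WT Ngn3 replicate 3. For 6S-A Ngn3 at 8 days (6) DESeq2, filterByExpr, no filter and the block gave 9, the own no-color group gave 3 and leaving out a replicate 4 to 6. At 2 days the first repeat only gave 4 for WT (8) and 5 for 6S-A Ngn3 (9), and leaving out a replicate 7 to 8 and 7 to 9. Chga, Chgb, Pcsk2 and Pcsk1n lost their call for both proteins with the first repeat only. The block gave 1 in the direct comparison of 2 days (0). With no filter, 8 against 2 days gave 4 for WT (3 higher, Cpe lower) and 4 for 6S-A Ngn3, and no-color against GFP only gave 3, each from 0. Between the proteins at 2 days, the first repeat only turned Chga to -0.19, Cpe to -0.19, Scg5 to -0.24 and Pcsk1n to -0.44, and moved Chgb to -6.24; Vgf was not tested there. Leaving out a replicate gave a range of -0.074 to 2.85 for Scg2 between the proteins at 2 days, -0.26 to 2.73 for Scg5 and 0.096 to 3.36 for Pcsk1 at 8 days, and -2.02 to 5.70 for Scg2 and -0.69 to 1.79 for Pcsk1 in WT Ngn3 from 2 to 8 days. Over all genes, DESeq2 and the block called 101 and 147 between the proteins at 2 days (3 in the report's fit), 551 and 472 for WT (180) and 822 and 704 for 6S-A Ngn3 (337) at 8 days, the block called 4291 for WT Ngn3 at 2 days (2810), and DESeq2 called 262 (33) and 716 (110) from 2 to 8 days and 1136 (265) between the control groups. The causes were not tested. A paired fit across days was not run, since replicate numbers were nested within days. Merging close technical repeats, chosen after seeing the data, left 8 of 16 pools at 10 CPM of Chgb in each Ngn3 group of 2 days. Where an arm was left with 2 replicates, its spread was pooled with the other groups. At 8 days, 1 to 3 pools per replicate limit the precision.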
